A study of Danio rerio with 4 samples.

Results

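The genes described here are the noncoding RNA genes and pseudogenes of the zebrafish retina that were listed as different after injury. They were taken as every entry of the 6 deposited tables whose Gene Type was not protein_coding. This gave 196 of 3154 entries and 136 of 2119 genes by gene identifier, in 15 Gene Types. The entries were 72 processed transcripts (45 genes), 51 long intergenic noncoding RNAs or lincRNAs (39 genes), 24 misc_RNA entries (14 genes), 9 microRNA genes' entries (8 genes), 8 rRNA entries (5 genes), 7 unprocessed pseudogene entries (4 genes), and 5 each of antisense, sense-intronic and snoRNA entries. The remaining entries were 3 of pseudogenes, 2 of snRNAs, 2 of a transcribed unprocessed pseudogene, 1 polymorphic pseudogene, 1 processed pseudogene and 1 ribozyme. The choice used the annotation only, although every entry had already passed the authors' filter.

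Total RNA of the whole retina was sequenced from wild type fish of 10 months in 4 groups, which were uninjured retina, retina at 12 hours post injury (12 hpi), at 4 days post injury (4 dpi), and at 4 days post injury in fish kept for 4 days in 100 µM valproic acid (4 dpi + VPA). Valproic acid blocks histone deacetylases, enzymes that remove acetyl marks from chromatin. FPKM is a count of fragments scaled for transcript length and for the total mapped in the group. Each group has 1 GEO sample and 1 FPKM value per gene or transcript, although the series' design text speaks of duplicates. No difference below therefore has a replicate check, the depth of the libraries is unknown, and the p-values and q-values are those of the authors. The 12 hpi and 4 dpi + VPA tables list transcripts and the 4 dpi tables list genes. All 3 comparisons share the uninjured group.

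Noncoding RNAs work without being translated. The RNA of the signal recognition particle (SRP) is the scaffold of the complex that brings ribosomes making secreted and membrane proteins to the endoplasmic reticulum. Small nucleolar RNAs (snoRNAs) guide the cleavage and modification of ribosomal RNA, small nuclear RNAs (snRNAs) form the core of the spliceosome, and microRNAs repress messenger RNAs that match their seed. LincRNAs and antisense transcripts are defined by where they lie relative to coding genes, and most of those listed have no known role. In the zebrafish retina, Müller glia re-enter the cell cycle after injury and replace lost neurons, and let-7 microRNAs are known there as repressors of reprogramming genes.

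The label noncoding was checked against a second annotation. Of the 136 genes, 29 matched a RefSeq gene by name, all on the same chromosome. RefSeq holds 17 of these as protein-coding, 6 as long noncoding RNA and 6 as microRNA. The 17 include cyp19a1b, mdh1ab, ticrr, rps20, dio3b, ccl34a.3, ccl34a.4 and tex264b. They also include si:dkey-30k22.5, si:dkey-273o13.3, si:ch211-276k2.1, si:ch73-49p17.1 and si:dkey-29j8.3. Among them, ccl34a.4 and si:ch211-276k2.1 were marked significant by the authors. Listed in every comparison were ccl34a.4, cyp19a1b and si:dkey-30k22.5. Of the 17, 10 are processed transcripts here, and the 17 account for 30 entries. The reason for the disagreement was not tested, and their values are given below under the Gene Type of the tables.

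Noncoding entries made up 8.89% of those listed at 12 hpi (55 of 619, 95% Clopper-Pearson interval 6.76 to 11.4), 5.05% at 4 dpi (74 of 1466, 3.98 to 6.30) and 6.27% at 4 dpi + VPA (67 of 1069, 4.89 to 7.89). These intervals cover counting error only and treat the entries as independent, although some are transcripts of the same gene or copies of SRP RNA. The 4 dpi tables list genes and the others list transcripts. The intervals therefore cannot show whether the share differed between the comparisons. At 12 hpi 39 members were listed higher and 16 lower, a share higher of 70.9% beside 63.7% of all listed entries (36.3% lower). At 4 dpi 35 were listed higher and 39 lower, 47.3% beside 60.9% of all listed entries (39.1% lower). At 4 dpi + VPA 35 were higher and 32 lower, 52.2% beside 58.3% (41.7% lower). The share higher was thus above that of all listed entries at 12 hpi and below it in both 4-day comparisons. At 12 hpi this rests on entries at or near 0: without those below 0.01 FPKM in either group, 9 members were higher and 9 lower, 50% higher beside 60.9% of all listed entries so limited. In the 4-day comparisons the share stayed below that of all listed entries under this limit, at 27.5% beside 58.3% at 4 dpi and 25.8% beside 53.3% at 4 dpi + VPA. Counted without the SRP RNA entries, 24 were higher at 4 dpi and 22 at 4 dpi + VPA, beside the same 39 and 32 lower.

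**Figure D1:**
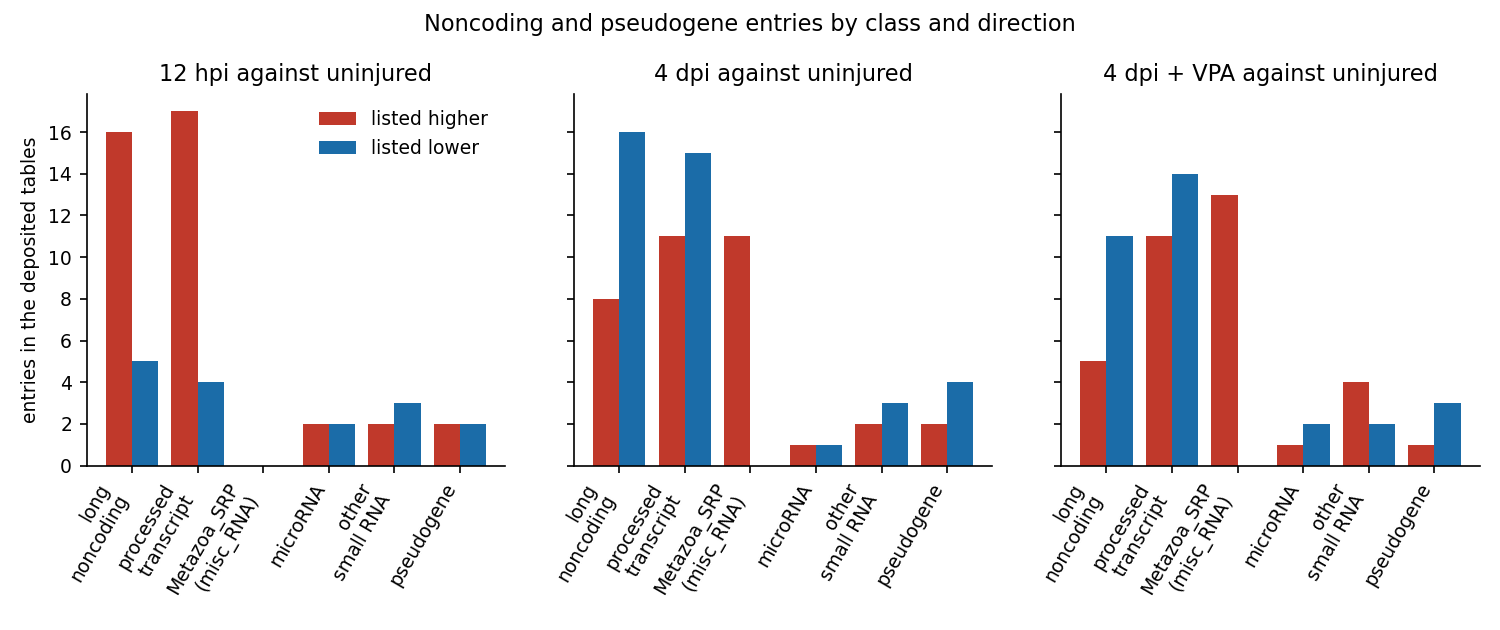
Number of listed entries (vertical axis) higher (red bars) and lower (blue bars) than uninjured retina, by class of RNA (horizontal axis), one panel per comparison. Long noncoding takes in lincRNA, antisense and sense-intronic entries. The SRP RNA bars stand at 11 at 4 dpi and 13 at 4 dpi + VPA, all higher, and at 0 at 12 hpi.

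Many members were listed at 0 FPKM in one of the groups compared. This held for 36 of 55 at 12 hpi, 33 of 74 at 4 dpi and 36 of 67 at 4 dpi + VPA, where the shares over all listed entries were 24.1%, 8.73% and 13.5%. Over the 3 comparisons it was 53.6% of the noncoding entries and 10.7% of the coding ones, and 80 of the 105 entries were at 0 in uninjured retina. The loci of members were also shorter, with medians of 2.05 kb at 12 hpi, 3.20 kb at 4 dpi and 2.05 kb at 4 dpi + VPA. Over all listed entries the medians were 15, 16.9 and 16.8 kb. These are spans of loci and not transcript lengths. The median log2 change, taken with a pseudocount of 0.1 FPKM, was 3.65 at 12 hpi, -1.68 at 4 dpi and 2.26 at 4 dpi + VPA, beside 2.17, 1.95 and 1.80 over all listed entries. The sign of the value at 4 dpi + VPA depended on the SRP RNA entries and was negative, at -1.93, without them.

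**Figure D2:**
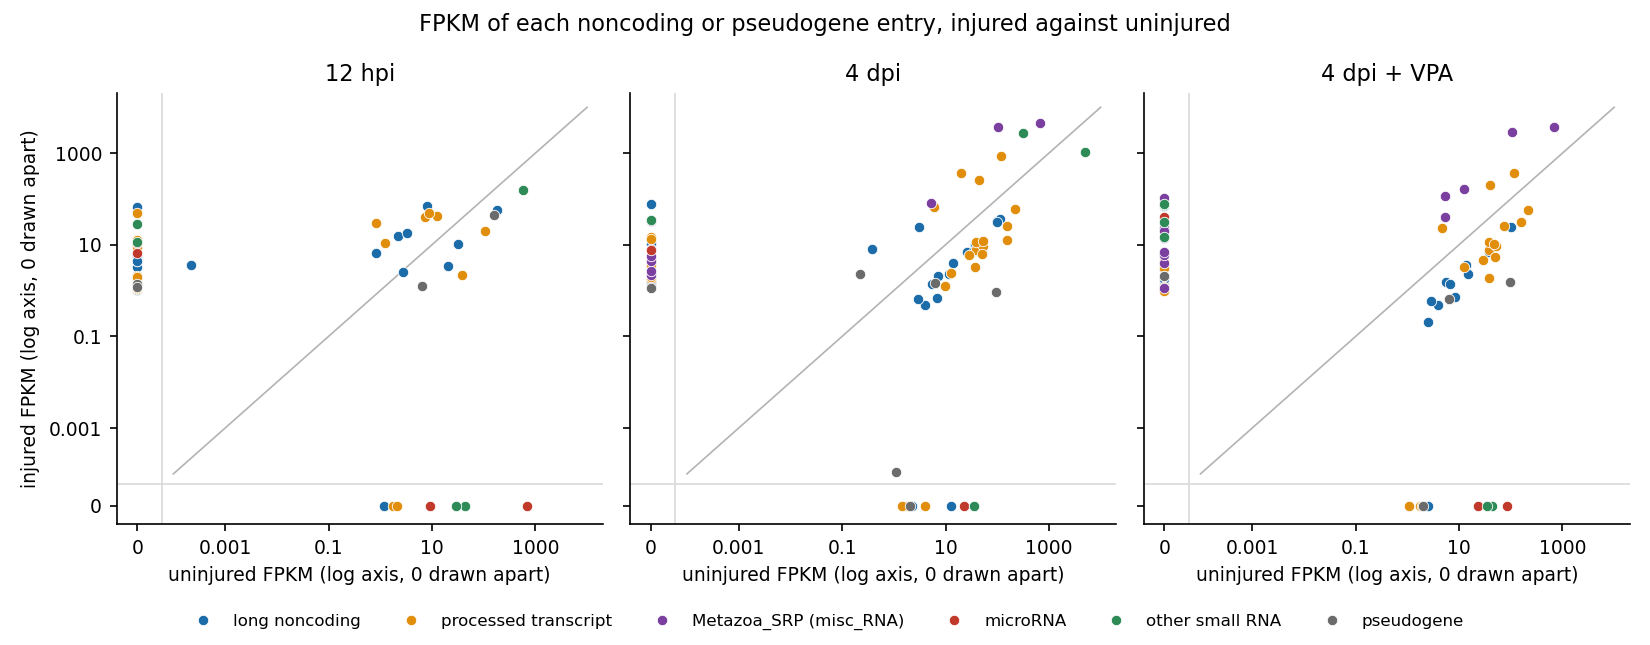
FPKM in the injured group (vertical axis) against uninjured FPKM (horizontal axis) for each noncoding entry, one panel per comparison, on log scales with entries at 0 drawn on separate strips, colours for the class of RNA and a diagonal where both groups are equal. The strip at 0 in uninjured retina holds most of the members listed at 0. U2, the most abundant pair of SRP RNA genes and the U3 copy ENSDARG00000101840 lie at the top of the range.

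The authors had marked 9 members significant, all in the gene-level 4 dpi tables, which is 12.2% of the 74 members there beside 3.07% of all listed entries. None was marked in either of the other comparisons, where 0% of all listed entries carried the mark. In the authors' deposited tables the smallest p of 5e-05 stood beside q = 0.0421 at 4 dpi and q = 0.0717 in the transcript-level tables. The number marked therefore cannot be compared between tables. Of the 9, 7 were listed at 0 in uninjured retina, 1 was at 0 at 4 dpi and 1 had a value in both groups. Of the 36 coding entries marked, 25 were at 0 in one group. In this comparison 33 of 74 members and 95 of 1392 coding entries were at 0 in one group. The larger share marked among members was not separated from their larger share at 0. They were the lincRNAs si:dkey-6n3.3, si:dkey-119g10.3, si:ch211-217n8.6 and si:ch211-160d14.12, the processed transcripts si:dkey-97i18.5, ccl34a.4 and si:ch211-276k2.1, 1 SRP RNA gene and the pseudogene CABZ01045617.1. Only these 9 are called changed below by the authors' mark, and every other member passed an unadjusted p of 0.05 only. The median of the authors' q over all member entries was 0.997.

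The SRP RNA genes were the largest group with a single name. The tables list 14 Metazoa_SRP genes, all on chromosome 11 and all higher, 11 of them at 4 dpi and 13 at 4 dpi + VPA. Of all listed entries, 60.9% were higher at 4 dpi and 58.3% at 4 dpi + VPA. No Metazoa_SRP gene was listed at 12 hpi. Of the 14 loci, 13 were 291 to 298 bases long and lay within 885 kb, between 11355183 and 12240137 on GRCz10, with 7 of the 14 genes on each strand. The locus given for the fourteenth, ENSDARG00000102492, reaches from 15905882 to 16189940 on the plus strand.

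ENSDARG00000098875 (chromosome 11, 12203685 to 12203981, plus strand) was the most abundant copy, at 678 FPKM in uninjured retina, 4487 at 4 dpi and 3738 at 4 dpi + VPA. The authors' deposited tables give it a log2 fold change of 2.73 at 4 dpi (SE 0.952, p = 0.0166, q = 0.999). At 4 dpi + VPA the authors' value is 2.46 (SE 0.857, p = 0.0077, q = 0.997). ENSDARG00000102492 stood at 104, 3725 and 2933 FPKM, a ratio to uninjured of 35.9 at 4 dpi and 28.3 with VPA. These 2 copies held 98.3% of the summed SRP RNA FPKM at 4 dpi and 93.1% at 4 dpi + VPA, so the sums, from 787 to 8354 and from 805 to 7167, describe mainly them.

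The other copies were low. ENSDARG00000105097 was at 5.34 FPKM in uninjured retina, 82.8 at 4 dpi and 113 at 4 dpi + VPA. ENSDARG00000098102, the copy marked significant at 4 dpi, was listed at 0, 32.9 and 105. In each 4-day comparison 8 copies were listed at 0 in uninjured retina. ENSDARG00000103392 (12.2 to 161 FPKM) and ENSDARG00000103481 (5.38 to 41.0 FPKM) were listed with VPA only, as was ENSDARG00000104289 (0 to 1.14), while ENSDARG00000098617 (0 to 2.16) was listed at 4 dpi only. The copies carry 1 family name and near-identical copies can exchange reads in counting, so the division of the signal among them is uncertain.

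**Figure D3:**
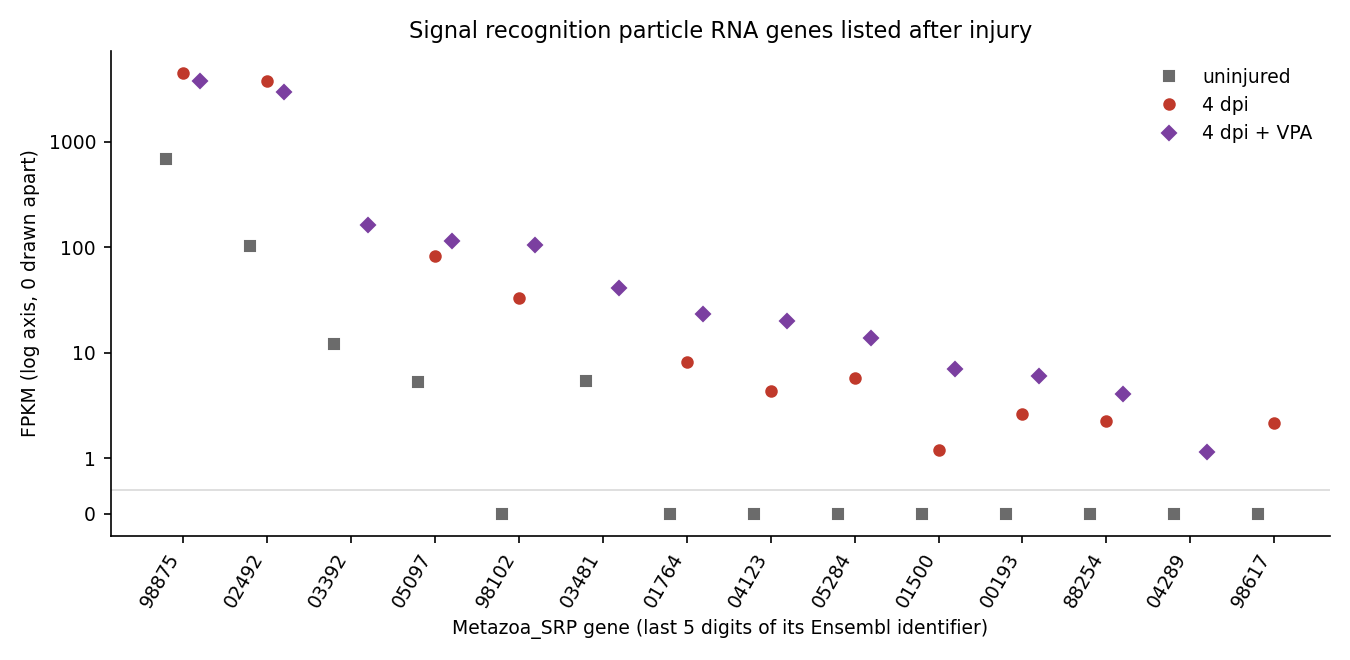
FPKM (log scale, values of 0 on a separate strip) of each listed SRP RNA gene in uninjured retina, at 4 dpi and at 4 dpi + VPA. The most abundant pair stood at 4487 and 3725 FPKM at 4 dpi and at 3738 and 2933 with VPA, while the other 8 copies listed in both comparisons were higher with VPA.

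Of the 10 SRP RNA genes listed in both 4-day comparisons, the FPKM with VPA was larger for 8 and smaller for 2, with ratios of VPA to 4 dpi from 0.788 to 5.82. The tables hold no direct comparison of the 4-day groups, so these ratios carry no test. The value at 4 dpi is that of a gene and the value with VPA that of a transcript. For 7 of the 10 both tables give 0 in uninjured retina, which does not show whether the gene and transcript values match, and all 7 were larger with VPA. Of the 3 with an identical uninjured value above 0, 1 was larger and 2 were smaller. None of the 6 protein subunits of the particle (srp9, srp14, srp19, srp54, srp68 and srp72) was listed in any comparison.

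All 5 snoRNA entries, of 4 genes, were higher, beside 60.6% of all listed entries over the 3 comparisons. Of the 5, 4 were at 0 in uninjured retina. U3, which directs the first cleavages of the ribosomal RNA precursor, was listed at 2 loci. The copy ENSDARG00000101840 (chromosome 1, 15765588 to 15765803, plus strand) stood at 317 FPKM in uninjured retina and 2735 at 4 dpi, and was not listed with VPA or at 12 hpi. In the authors' deposited table its log2 fold change was 3.11, with SE 0.756, p = 0.00025 and q = 0.135. The copy ENSDARG00000100103 (chromosome 7, 7538796 to 7539009, plus strand) was listed at 0 in uninjured retina, 35.2 FPKM at 4 dpi and 14.9 at 4 dpi + VPA.

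SNORA26 and SNORA27 belong to the class that guides the conversion of uridine to pseudouridine. They lie 272 bases apart on the minus strand of chromosome 20. They were listed at 4 dpi + VPA only, where SNORA26 stood at 77.1 FPKM and SNORA27 at 31.3 FPKM against 0 in uninjured retina.

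How many genes the authors tested is unknown, so the counts of gene lists here and below have no share over all genes beside them and show no more than which genes were listed. Among 13 genes for snoRNA-bound proteins and pseudouridylation, 4 were listed higher at 4 dpi and none lower. dkc1, the pseudouridine synthase, was at 4.86 FPKM in uninjured retina and 15.7 at 4 dpi, and at 18.9 at 12 hpi. snu13b, which binds the U3 family and the spliceosomal U4 RNA, was at 4.08 in uninjured retina, 22.6 at 4 dpi and 22.2 at 4 dpi + VPA. The other 2 were the core proteins nhp2 (3.98 to 16.0) and nop56 (18.7 to 50.4). At 12 hpi and at 4 dpi + VPA, 1 gene of the list was listed.

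U2 snRNA, which recognises the branch point of introns, was the most abundant member in uninjured retina at 4937 FPKM and stood at 1035 at 4 dpi. The authors' deposited table gives a log2 fold change of -2.25 (SE 0.774, p = 0.0068). Its locus in the table, chromosome 7 from 21519257 to 21572102, is far longer than the RNA. U6atac, of the minor spliceosome, was listed at 0 in uninjured retina and 28.0 FPKM at 12 hpi.

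Of 22 genes for spliceosomal particle proteins, 3 core Sm proteins were listed higher at 4 dpi. They were snrpb (27.9 to 92.7 FPKM), snrpe (16.9 to 53.5) and snrpg (12.3 to 44.9). smn1, which loads the Sm ring onto snRNAs, was near 0 in uninjured retina, and its listed transcript stood at 2.28 FPKM at 12 hpi and 3.04 at 4 dpi + VPA. The U2 RNA was thus listed lower in the same comparison in which these 3 proteins were listed higher.

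RNaseP_nuc, the catalytic RNA that trims transfer RNA precursors, stood at 583 FPKM in uninjured retina and 157 at 12 hpi. The authors' deposited table gives a log2 fold change of -1.89 (SE 0.733, p = 0.0127). The 4 loci named 5S_rRNA, the small RNA of the large ribosomal subunit, were each listed lower, at 0 after injury and between 28.9 and 43.5 FPKM in uninjured retina, and near-identical copies make these loci uncertain too. si:dkeyp-3b12.12, also typed as rRNA (chromosome 4, 53849401 to 53849574, minus strand), was at 0 in uninjured retina, 11.5 FPKM at 12 hpi and 74.4 at 4 dpi + VPA. No gene of the lists for RNase P and MRP (11 genes), RNA polymerases III and I (13), microRNA processing (15), nonsense-mediated decay (10) or the nuclear exosome (13) was listed. Of 7 genes of the 7SK particle, MEPCE was listed lower at 12 hpi, from 1.28 FPKM to 0. Over all 9 lists, with 110 genes, 2 were higher and 1 lower at 12 hpi, 7 and 0 at 4 dpi, and 2 and 0 at 4 dpi + VPA.

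The microRNA entries are precursor genes, measured by sequencing of total RNA and not as mature microRNAs. The effect of library preparation on these and the other small RNAs was not tested. All 9 entries were at 0 in one of the groups compared. The let-7 family was represented by dre-let-7g-1 (chromosome 23, 18456113 to 18456208), at 688 FPKM in uninjured retina and 0 at 12 hpi, and by dre-let-7a-3 (chromosome 4, 18665179 to 18665285), at 85.3 and 0 at 4 dpi + VPA. dre-mir-96, a microRNA of sensory cells, was listed in uninjured retina at 22.8 FPKM and at 0 both at 4 dpi and at 4 dpi + VPA. dre-mir-125b-1, from a family linked to neural differentiation, was at 9.19 and 0 at 12 hpi.

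In the other direction, both miR-21 genes were listed at 0 in uninjured retina. miR-21 is known in several tissues for its induction by injury. dre-mir-21-1 (chromosome 10, 28312269 to 28312416) stood at 10.8 FPKM at 12 hpi and dre-mir-21-2 (chromosome 15, 17437767 to 17437893, plus strand) at 40.2 at 4 dpi + VPA. dre-mir-21-2 lies 436 bases from vmp1, an autophagy gene on the same strand that stood at 9.87 FPKM in uninjured retina and 70.1 at 4 dpi. The lincRNA si:ch211-217n8.6 lies 2451 bases from it on the same strand. Further precursors were CR936442.1, at 6.56 FPKM at 12 hpi, and BX890562.1, at 7.55 at 4 dpi. The locus of BX890562.1 covers 190777 bases and is that of the listed coding gene phtf2 on the other strand.

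The short RNAs need to be read with their length. FPKM scales the fragments for transcript length, and how the length of such short RNAs was set is not stated. In the values below FPKM falls far more steeply than length rises. A high FPKM of a short RNA therefore need not mean many fragments. There were 15 genes of under 170 bases, a limit chosen after the values were seen, at 0 in one of the groups compared, 9 of them with a value in uninjured retina. Among these 9 the FPKM never rose with length, from 688 at 96 bases to 9.19 at 145 bases. The same held for the 3 with a value at 12 hpi, from 28.0 at 128 bases to 6.56 at 163, and for the 3 at 4 dpi + VPA, from 77.1 at 122 to 31.3 at 137. One p, 0.03365 in the authors' deposited tables, is shared by 15 entries at 0 after injury, and another, 0.03765, by 8 entries at 0 in uninjured retina. These shared values are not limited to short RNAs. They take in si:ch211-209l18.3 (4630 bases) in all 3 comparisons and si:ch211-200o1.1 (22546 bases) at 12 hpi. The order did not extend past the limit, since si:dkeyp-3b12.12, with 174 bases and 0 in uninjured retina, was at 11.5 FPKM at 12 hpi and 74.4 at 4 dpi + VPA, above shorter genes in both groups. The number of fragments behind each value is unknown.

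**Figure D4:**
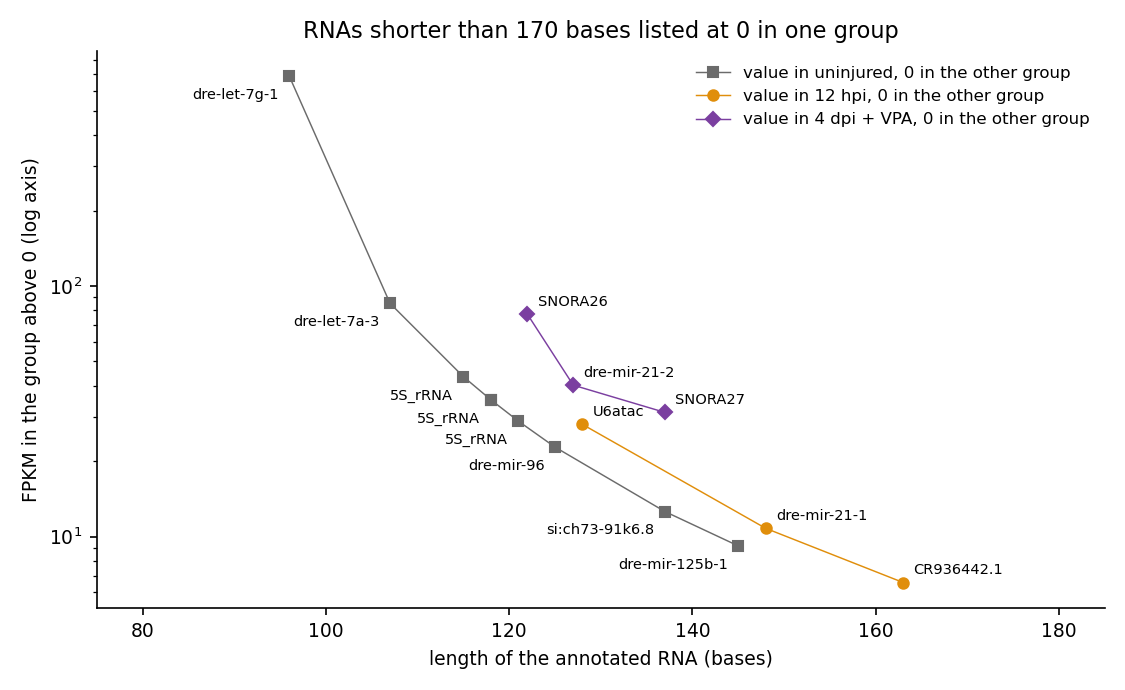
FPKM (log scale) in the group with a value against locus length in bases, for noncoding genes under 170 bases that were at 0 in the other group. Lines join the points of 1 group, and a pair of 5S_rRNA loci with equal values is drawn as 1 point. Points of each group fall from left to right, in uninjured retina from 688 FPKM at 96 bases to 9.19 at 145.

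LincRNAs were listed 15 higher and 3 lower at 12 hpi, 8 and 12 at 4 dpi, and 5 and 8 at 4 dpi + VPA. The shares higher were 83.3%, 40% and 38.5%, beside 63.7%, 60.9% and 58.3% of all listed entries. Of the 15 higher at 12 hpi, 10 were at 0 in uninjured retina. The most abundant lincRNA listed higher over the 3 comparisons was si:dkey-6n3.3 (chromosome 22, 11067830 to 11068636, plus strand). It was listed at 0 in uninjured retina, 67.4 FPKM at 12 hpi, 79.5 at 4 dpi and 71.8 at 4 dpi + VPA. Its neighbour si:dkey-119g10.3, 11.5 kb away on the same strand (11053094 to 11056297), was at 0, 1.32, 10.5 and 1.79. Both lincRNAs were marked significant at 4 dpi. The pair had the same direction in all 3 comparisons. si:ch211-217n8.6 (chromosome 15, 17440345 to 17442041) was at 0, 4.98, 3.62 and 1.33 and was also marked at 4 dpi.

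Genes used as lens markers were also listed higher in these comparisons. Of 6 lens markers, 4 were listed in each, all at 0 in uninjured retina, with summed FPKM of 247 at 12 hpi, 69.2 at 4 dpi and 512 at 4 dpi + VPA. Whether this RNA came from lens or from retina was not tested, nor was its part in the noncoding results. The labelled tissue could be checked only by listed markers, which included gfap and slc1a2b of Müller glia, trpm1b of bipolar cells, and gap43 and rbpms2b of ganglion cells. No rod or cone marker was listed in any comparison. Only entries that passed the authors' filter are listed, so a marker with similar values in the groups would be missing here. The lack of rod and cone markers therefore does not show that these cells were absent. In whole retina, fewer cells of a type and less RNA per cell cannot be told apart.

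At 12 hpi alone, si:dkey-13m3.1 (chromosome 15, 9956453 to 9961418) was at 7.85 FPKM in uninjured retina and 71.2 after injury. The authors' deposited table gives it a log2 fold change of 3.18 (SE 0.856, p = 0.0026). si:dkeyp-104f11.4 stood at 3.23 and 18.2, and si:dkey-234i14.20 at 2.21 and 15.5. The lincRNAs listed lower at 12 hpi were si:ch1073-358o18.3 (178 to 58.3), si:ch211-132d3.4 (31.8 to 10.5) and si:dkey-22o12.7 (20.0 to 3.41). At 4 dpi the most abundant lincRNA listed lower was si:dkey-97l11.1, at 97.9 and 33.4 FPKM. si:ch73-158n7.2 (36.6 to 10.6) and si:ch73-49p17.1 (34.9 to 7.25) were lower at 4 dpi as well. si:ch211-160d14.12, marked significant, was at 2.30 FPKM in uninjured retina and 0 at 4 dpi. It lies 23.8 kb from actb1, which was listed higher at 4 dpi.

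A neighbouring pair of lincRNAs was listed in opposite directions in different comparisons. si:dkey-19d21.2 was at 0.382 FPKM in uninjured retina and 8.14 at 4 dpi. si:dkey-19d21.3, 1777 bases away on the same strand of chromosome 15, was at 37.3 in uninjured retina and 7.01 at 4 dpi + VPA.

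All 5 sense-intronic entries, transcripts annotated within introns of coding genes, were lower. They come from 4 genes. Of all listed entries over the 3 comparisons, 60.6% were higher. si:cabz01078080.2 was at 100 FPKM in uninjured retina, 30.7 at 4 dpi and 24.1 at 4 dpi + VPA. si:cabz01016011.2 was at 112 and 35.7 at 4 dpi. si:ch211-24o8.5 (14.8 to 2.34) and si:dkey-29j8.3 (8.50 to 0.740) were lower at 4 dpi + VPA, and RefSeq holds the latter as protein-coding. Of 5 antisense entries 4 were lower, among them si:ch211-128n12.4 (51.0 to 6.84) and si:dkey-221l4.13 (26.6 to 6.96) at 4 dpi. The one listed higher was si:ch211-145g9.6, from 0 to 2.19 FPKM at 12 hpi. It lies 18.6 kb from junba, an AP-1 gene at 2.91 in uninjured retina and 19.1 at 12 hpi. Listed lower at 12 hpi was si:dkey-30k6.7 (1.20 to 0 FPKM). It lies 40.9 kb from hspb11, which was listed higher there (1.07 to 87.3). The labels and headers do not say whether reads were counted by strand, so antisense and intronic transcripts cannot be told apart from reads of the genes they overlap.

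Processed transcripts were listed 17 higher and 4 lower at 12 hpi, 11 and 15 at 4 dpi, and 11 and 14 at 4 dpi + VPA. The shares higher were 81.0%, 42.3% and 44%, beside 63.7%, 60.9% and 58.3% of all listed entries. Of the 17 higher at 12 hpi, 12 were at 0 in uninjured retina. si:dkey-30k22.5 (chromosome 1, 25028824 to 25030873, plus strand) was lower in all 3 comparisons, at 37.8 FPKM in uninjured retina, 2.16 at 12 hpi, 3.30 at 4 dpi and 1.86 at 4 dpi + VPA. The ratio of uninjured to injured was between 11.5 and 20.4. In the authors' deposited tables its p lay between 0.0027 at 4 dpi (q = 0.516) and 0.0173 at 12 hpi (q = 0.997).

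The most abundant processed transcripts listed higher were rps20, a protein of the small ribosomal subunit, at 118 FPKM in uninjured retina, 864 at 4 dpi and 364 at 4 dpi + VPA, and si:dkey-238c7.13. The latter (chromosome 18, 7625451 to 7628355, plus strand) was at 19.8 and 372 at 4 dpi. Its log2 fold change was 4.23 in the authors' deposited table, with SE 0.855, p = 0.00015 and q = 0.0969. si:dkeyp-1h4.9, 12.2 kb from it on the same strand, was at 6.06 FPKM in uninjured retina and 66.8 at 4 dpi, and at 4.70 and 22.9 in the transcript-level comparison with VPA. These neighbours were thus both higher at 4 dpi. At 12 hpi si:ch211-242h13.4 was at 0.815 and 29.1, and dio3b, whose enzyme inactivates thyroid hormone, at 12.4 and 42.8.

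The chemokine transcript ccl34a.4 was at 0 in uninjured retina, 49.2 FPKM at 12 hpi, 14.6 at 4 dpi and 31.1 at 4 dpi + VPA, and was marked significant at 4 dpi. A second transcript of it was at 8.96 at 12 hpi. Its neighbour ccl34a.3 was at 0 in uninjured retina, 1.75 at 12 hpi and 3.04 at 4 dpi + VPA in the same transcript, and another transcript was listed at 6.57 with VPA. si:dkey-97i18.5, also marked at 4 dpi, was listed by gene at 13.3 FPKM at 4 dpi and at 0 in uninjured retina. By transcript it was at 2.02 at 12 hpi and 4.42 at 4 dpi + VPA, and another of its transcripts was listed at 6.85 with VPA. Of 4 macrophage markers 3 were listed higher at 4 dpi (summed FPKM 9.50 to 64.7) and at 4 dpi + VPA (8.70 to 62.4), and none was listed at 12 hpi. The part of these cells in the chemokine values was not tested.

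Among processed transcripts listed lower, si:dkey-224j12.3 was at 105 FPKM in uninjured retina and 19.9 at 12 hpi by transcript, and at 155 and 12.6 at 4 dpi by gene. si:dkey-273o13.3 was at 157 in uninjured retina, 25.5 at 4 dpi and 30.7 at 4 dpi + VPA. si:ch211-147g21.5 was at 219, 61.2 and 57.4. For the latter pair the 2 injured values lay close together and far below the uninjured value.

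The pseudogene CABZ01045617.1, on the unplaced scaffold KN150411.1 (5514 to 15218, minus strand), had the largest finite log2 fold change in the authors' deposited tables among members with at least 5 FPKM in the higher group. It was at 96.2 FPKM in uninjured retina, 0.938 at 4 dpi and 1.57 at 4 dpi + VPA, and was not listed at 12 hpi. In the authors' deposited tables its log2 fold change was -6.68 at 4 dpi (SE 1.05, q = 0.0421) and -5.94 at 4 dpi + VPA (SE 0.969, q = 0.0717). cyp19a1b, the aromatase of brain radial glia and typed here as an unprocessed pseudogene, was lower in all 3 comparisons, at 6.36 FPKM in uninjured retina, 1.25 at 12 hpi, 1.50 at 4 dpi and 0.647 at 4 dpi + VPA.

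mdh1ab, a cytosolic malate dehydrogenase typed as a polymorphic pseudogene, was at 155 FPKM in uninjured retina and 45.5 at 12 hpi. ticrr, a factor for starting DNA replication typed as an unprocessed pseudogene, was at 0.218 and 2.28 at 4 dpi. si:ch211-84k18.3 was at 0 in uninjured retina, 1.11 at 4 dpi and 2.07 at 4 dpi + VPA. It lies 8.16 kb from anxa2a, an annexin at 3.85 FPKM in uninjured retina, 22.5 at 12 hpi, 108 at 4 dpi and 129 at 4 dpi + VPA. si:ch73-368j24.16 was at 2.04 in uninjured retina and 0 in both 4-day groups, with several histone genes within 50 kb that were listed higher at 4 dpi. Pseudogenes share sequence with their parent genes, so their values are uncertain where reads could be divided between copies.

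By gene identifier, 49 of the 136 genes were listed in more than 1 comparison, 26 higher and 23 lower, and none in both directions. By gene name the count was 39 of 119, since the SRP RNA, U3 and 5S genes share names. The 4 dpi and 4 dpi + VPA lists shared 44 genes, 59.5% of the former and 67.7% of the latter. The 12 hpi list shared 10 genes with 4 dpi (18.5% of the 12 hpi list and 13.5% of the other) and 11 with 4 dpi + VPA (20.4% and 16.9%). For coding genes the same shares were 48.9% and 69.1%, 31.9% and 12.6%, and 45.6% and 25.5%. A noncoding gene listed at 12 hpi was thus found again at 4 days in a smaller share than a coding gene. This is a description only, since all lists rest on 1 uninjured group. At 12 hpi 65.5% of the noncoding entries and 20.0% of the coding ones were at 0 in one group. The part of these entries in the difference was not tested.

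The genes listed in all 3 comparisons numbered 8. Those higher were si:dkey-6n3.3, si:dkey-119g10.3, si:ch211-217n8.6, ccl34a.4 and si:dkey-97i18.5, all at 0 in uninjured retina and all marked significant at 4 dpi. Those lower were si:dkey-30k22.5, cyp19a1b and si:ch211-209l18.3, which was at 1.78 FPKM in uninjured retina and 0 in each injured group. In the authors' deposited tables si:ch211-209l18.3 has the p of 0.03365 shared by many entries at 0 after injury.

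**Figure D5:**
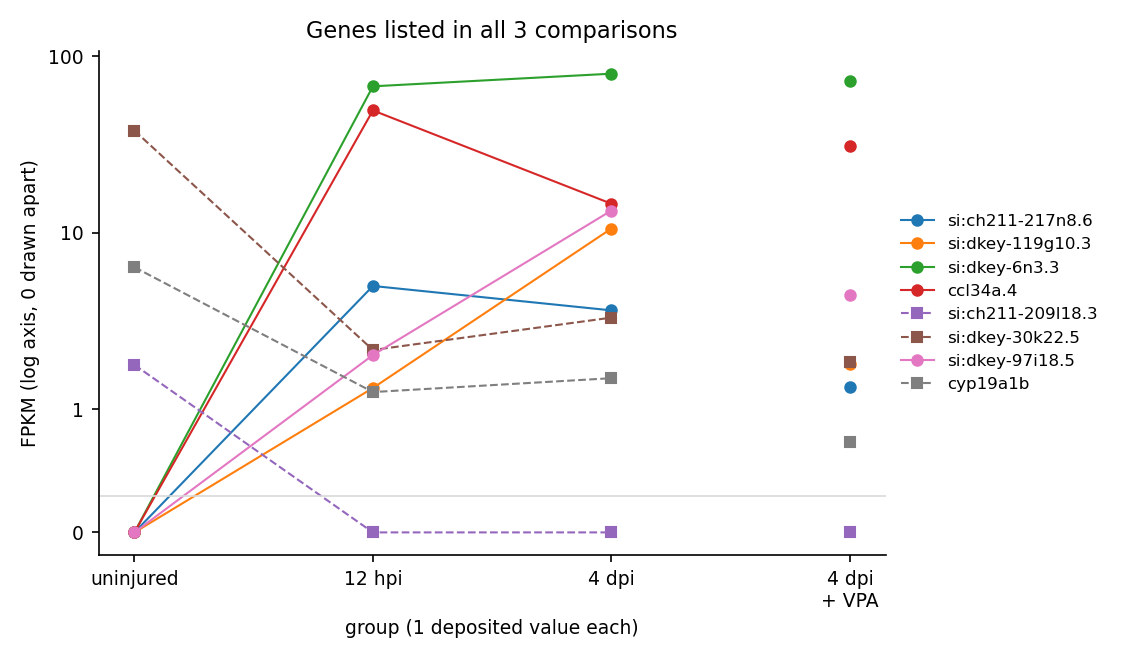
FPKM (log scale, values of 0 on a separate strip) in the 4 groups for the 8 genes listed in all 3 comparisons. Circles with solid lines mark genes listed higher and squares with dashed lines those lower, and the 4 dpi + VPA value is drawn unconnected because it is not a later time. Values at 12 hpi and 4 dpi + VPA are of the same transcript and those at 4 dpi are of the gene.

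Of the 44 genes listed in both 4-day comparisons, 23 have an identical uninjured FPKM above 0 in the gene-level and the transcript-level table. An identical uninjured value does not show that gene and transcript values also match after injury, so the ratios keep this limit. Of the 23 genes, 19 were lower than uninjured, with 7 larger with VPA than at 4 dpi, 8 smaller and 4 at 0 in both groups. Their ratios of VPA to 4 dpi lay between 0.433 and 2.03, with a median of 0.98. The other 4 were higher than uninjured, namely rps20 and 3 SRP RNA genes, and 1 of them was larger with VPA.

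A further 17 genes were at 0 in uninjured retina in both tables and higher after injury, 7 of them SRP RNA genes. Whether their gene and transcript values match cannot be read from the tables. All 7 SRP RNA genes were larger with VPA. Of 11 pairs of a gene and a transcript value for the 10 other genes, 3 were larger with VPA and 8 smaller. Both listed transcripts of si:dkey-97i18.5, at 4.42 and 6.85 FPKM with VPA, are among the smaller ones. Each was set alone against the value of the whole gene, 13.3 at 4 dpi. The lowest ratios of VPA to 4 dpi were those of si:dkey-119g10.3 and si:ch211-276k2.1. The latter stood at 5.06 FPKM at 4 dpi by gene and at 1.19 with VPA by transcript. The highest of the others was that of ccl34a.4, at 14.6 and 31.1.

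Member genes lay on 24 numbered chromosomes and, for 3 genes, on scaffolds, with 64 on the plus and 72 on the minus strand. Chromosome 11 held 19 genes, 14 of them SRP RNA genes, chromosome 7 held 12 and chromosome 22 held 9. A listed coding gene lay within 50 kb of 28 member genes, in 47 pairs of which 24 had a common direction. Direction was matched even where no comparison listed both genes of a pair, as for BX890562.1 and phtf2. All pairs of the pseudogene near the histone genes above were without a common direction. No share over all listed genes was taken beside these counts, so they show no more than which genes lie near each other. Only BX890562.1 overlapped a listed coding gene. Another member lay within 50 kb of 31 genes.

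A few members rest on small or unstable differences. tex264b was at 2.78 FPKM in uninjured retina and 2.59 at 12 hpi, yet the authors' deposited table gives it p = 0.0165 at a log2 fold change of -0.10. si:ch211-160d20.6 was near 0 in uninjured retina and at 3.60 FPKM after injury, and CU041396.1 stood at 1.09 and near 0. For these 3 the authors' test statistic was below 1 in size.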

How the data were processed

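RNA sequencing of whole zebrafish retina was described from 6 deposited tables covering 3 comparisons of 4 groups, with 1 sample per group, per the labels. Bowtie2 2.2.2, TopHat2 2.1.0, Cufflinks 2.2.1 and the build GRCz10 are named in the submitters' processing notes, and the notes give no roles. The authors computed 1 FPKM for each group, per the file headers. Deposited beside it are the authors' log2 fold change, a test statistic, which is a score, and the p-value with its q-value. Judging by the values, entries were kept at p of 0.05 or less and where the larger FPKM exceeded 1. The 4 dpi tables are at gene level and the others at transcript level. Sequencing depth is unknown, and no test was run.

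Entries with a Gene Type other than protein_coding were counted by type, direction, strand and locus with Python 3.11.15 and pandas 2.3.3. The SE was derived by dividing each deposited log2 fold change by its statistic. Log2 changes of the summaries used a pseudocount of 0.1 FPKM, so they understate the change of low genes. Deposited starts count from 0, since the spans of 6 of 6 matched microRNA genes then equal the RefSeq lengths, and printed starts count from 1. RefSeq (assembly GRCz12tu) was used only for names and gene biotypes, and 100 of 136 identifiers were found in the table of gene names. Genes were named by rule: in each comparison and Gene Type the 5 most abundant and the 5 of largest finite change at 5 FPKM or more, those at 0 in one group with at least 5 FPKM in the other, those with q of at most 0.2, all small RNAs, shared genes and established symbols. Neighbouring coding genes named outside this rule were chosen after their values were seen. The members, gene lists and rule were chosen with earlier results of these data known. Only the formula of the log2 change was checked, on values built from the listed FPKM with a known change. Counting, sharing, neighbour distances and entries at 0 were not checked in this way. Alternatives were other pseudocounts, filters on low values, other units of counting, and leaving out SRP RNA or RefSeq-coding genes.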

Additional observations from a re-analysis of the deposited data

How the results depend on the processing

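Of 63 alternative settings over 13 summary values, 37 left the value within the limits set for it, 23 moved it and 3 turned its sign. The median log2 change at 12 hpi (3.65) was 1.46 with a pseudocount of 1, 6.83 with 0.01, 2.47 over entries with at least 5 FPKM in the higher group, 0.841 without entries below 0.01 FPKM in either group, and 3.74 without genes that RefSeq holds as protein-coding. At 4 dpi (-1.68) it was -1.27, -1.68, -1.77, -1.92 and -1.73 in the same order, and -1.84 without the SRP RNA entries. At 4 dpi + VPA (2.26) it was 1.01 and 2.28 with the other pseudocounts, and it turned negative at -1.57 over entries with at least 5 FPKM, -2.12 without entries below 0.01 FPKM and -1.93 without the SRP RNA entries. Entries listed higher numbered 18 at 12 hpi, 20 at 4 dpi and 23 at 4 dpi + VPA at 5 FPKM or more, and 9, 11 and 8 without entries below 0.01 FPKM, which removes every entry at 0. Entries listed lower at 12 hpi were 9 without them. At 4 dpi + VPA, 21 distinct names and, without SRP RNA, 22 entries were higher. Sharing fell from 39 gene names to 11 by transcript identifier, since the 4 dpi tables give none, and was 49 by locus. Leaving out SRP RNA or RefSeq-coding genes and counting gene identifiers were chosen after seeing the data. No paired analysis was possible because each group has 1 value per gene, and no replicate could be left out.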
